A study of Mus musculus with 56 samples.

Results

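The 6 genes described here encode receptors that guide leukocytes along gradients of attractant molecules. They are 4 chemokine receptor genes, Ccr1, Ccr2, Cx3cr1, and Cxcr4, and 2 formyl peptide receptor genes, Fpr1 and Fpr2. Their ChIP-seq peaks were taken from 56 peak lists of mouse bone marrow-derived macrophages by the gene name that the annotation tool HOMER gave to each peak, which is the gene with the nearest transcription start site. This rule selected 1692 of 1610519 peaks, belonging to 6 of 20352 named genes. Each list held between 13 and 68 of these peaks.

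Chemokine receptors and formyl peptide receptors are seven-transmembrane receptors that signal through Gi-type G proteins and steer cell migration. Ccr1 binds inflammatory chemokines such as Ccl3 and Ccl5. Ccr2 binds Ccl2 and its relatives and is needed for monocytes to leave the bone marrow. Cx3cr1 binds fractalkine (Cx3cl1) and is a hallmark of patrolling monocytes and of microglia. Cxcr4 binds Cxcl12 and retains cells in the bone marrow. Fpr1 and Fpr2 bind formylated peptides from bacteria and mitochondria, and Fpr2 also binds annexin A1 and serum amyloid A. In macrophages, interleukin-4 (IL-4) drives alternative polarization through the transcription factor STAT6, whereas lipopolysaccharide (LPS) from bacterial walls drives an inflammatory program through NF-kB, of which p65 is a subunit.

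All macrophages were grown for 6 days with L929 supernatant (named MCSF in the labels) from the bone marrow of Wt mice aged 8 to 12 weeks. In the first experiment, cells were left untreated or received IL-4 for 1 hr at 20 ng/ml, and 8 antibodies were used. These were directed against H3K27Ac, a histone mark of active enhancers and promoters, the acetyltransferase p300, the lineage factor PU.1, the deacetylases HDAC1, HDAC2, and HDAC3, and RNA polymerase II phosphorylated at serine 5 (RNAPII-pS5) or serine 2 (RNAPII-pS2). In the second experiment, cells were pretreated (PT) for 24 hr with IL-4 at 20 ng/ml or not, then received LPS for 1 hr at 100 ng/ml or not, which gave the groups ctrl/ctrl, ctrl/LPS, IL-4 PT/ctrl, and IL-4 PT/LPS for RNAPII-pS5, RNAPII-pS2, and p65. Every group held 2 lists. The study describes its ChIP-seq data as coming from independent biological replicates, while the sample labels give only replicate numbers. In a bulk sample, fewer cells of a type and less signal per cell cannot be told apart.

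The files hold scores and no reads, so sequencing depth is unknown. The nearest record of it is the number of peaks per list, which ran from 8440 to 71027. The p300 list of untreated replicate 1 held 44787 peaks with a median score of 11.04, against 66710 to 69360 peaks with median scores of 18.2 to 19.2 in the other 3 p300 lists. A conflict concerns 4 RNAPII-pS2 lists, those of the first experiment, whose peak names bear the treatment that their labels do not, in 16689 of 16689 and 20677 of 20677 peaks for the lists labelled untreated. Both cannot be right, so these lists are called "labelled untreated" and "labelled IL-4" and results are given with and without them. The label of the HDAC3 samples gives the catalogue number that the labels also give for H3K27Ac, whereas the reagent list of the study has another number for HDAC3. Of 9 macrophage markers, 7 had an RNAPII peak in all 24 RNAPII lists (summed mean score of 514), while no neutrophil marker of 6 did (18.1) and the T cell genes Cd3e, Cd3g, and Trac had none. Ms4a1, Flt3, and Pdgfrb, taken as markers of B cells, dendritic cells, and fibroblasts, had a peak in all 24, but Pax5, Col1a1, and Col3a1 had none, and the part of other cells in the results was not tested.

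A gene's value is the sum of the scores of its peaks, and a site's value is its highest peak score. For H3K27Ac the score is a signal of normalized tags, and for the other antibodies it is on a −log10 scale of a p- or q-value. Values were put on a log2 scale, centred on features that had peaks in all samples, and compared with limma over all features. A change was called at a Benjamini-Hochberg adjusted p of at most 0.1, and a log2 change is one of peak score and not of binding. Genes or sites without a peak were set to the lowest score of the antibody, so where a group has no peak the fitted change depends on that floor and no fold is given. All 6 genes passed the filter for every antibody.

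The 1692 peaks fell into 111 separate elements, of which 45 had a peak in at least 8 lists and 29 in a single list. Distances are from the start site in kb, positive downstream in the direction of the gene, and an element takes the distance of its highest peak. Cxcr4 (chr1:128588199-128592299, minus strand) had the most, with 602 peaks in 49 elements between −259.8 and 85.2 kb. Ccr1 (chr9:123962126-123968692, minus strand) had 413 peaks in 21 elements between −2.6 and 44.7 kb, and Ccr2 (chr9:124101918-124109140, plus strand) had 212 peaks in 17 elements between −39.9 and 8.8 kb. Cx3cr1 (chr9:120048683-120068296, minus strand) had 154 peaks in 8 elements between −1.6 and 18.7 kb. Fpr2 (chr17:17887824-17893952, plus strand) had 195 peaks in 10 elements between 2.2 and 32.7 kb, and Fpr1 (chr17:17876471-17883939, minus strand) had 116 peaks in 6 elements between −1.0 and 13.4 kb. Single Fpr2 peaks lay closer to its start site, from 66 bp on, and 2 of the 195 were at the promoter. The genes differed in where their peaks lay. Between 56.9% (Fpr1) and 89.3% (Ccr1) of the peaks of 5 genes were intergenic, while only 1.3% of the Cx3cr1 peaks were, which lay in introns (59.7%), at the promoter (19.5%), and in the 3′ UTR (19.5%). Over all 1610519 peaks, 39.0% were intergenic, 40.9% intronic, and 13.1% at promoters.

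The following 8 windows of 200 bp are centred on peaks at elements that carried the results below, and are shown so that these elements can be read directly (GRCm38.p6, the mm10 assembly, plus strand). The first 3 are from a p300 list after IL-4 (replicate 1) and the other 5 from a p65 list after LPS (ctrl/LPS replicate 1). Capitals mark matches to 5 motifs on either strand, TTCNNNNGAA and TTCNNNGAA (STAT with a spacer of 4 or 3 bases), GGGNNNTTCC (NF-kB), GAGGAA (PU.1), and TGANTCA (AP-1).
Cxcr4 at 85.2 kb (chr1:128506995-128507194): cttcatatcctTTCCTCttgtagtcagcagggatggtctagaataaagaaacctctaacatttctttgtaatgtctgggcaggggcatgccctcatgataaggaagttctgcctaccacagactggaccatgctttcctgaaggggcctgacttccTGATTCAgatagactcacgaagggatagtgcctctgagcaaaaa
Cxcr4 at −129.9 kb (chr1:128722145-128722344): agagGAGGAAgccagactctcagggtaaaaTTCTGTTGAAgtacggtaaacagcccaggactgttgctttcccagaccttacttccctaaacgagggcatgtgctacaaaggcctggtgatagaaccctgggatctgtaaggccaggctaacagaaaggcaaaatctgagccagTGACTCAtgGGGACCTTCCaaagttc
Ccr2 at −11.4 kb (chr9:124090592-124090791): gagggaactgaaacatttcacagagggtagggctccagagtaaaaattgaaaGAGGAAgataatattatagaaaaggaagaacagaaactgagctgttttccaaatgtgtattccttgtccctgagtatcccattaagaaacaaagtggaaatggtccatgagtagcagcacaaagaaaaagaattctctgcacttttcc
Ccr1 at 31.9 kb (chr9:123936757-123936956): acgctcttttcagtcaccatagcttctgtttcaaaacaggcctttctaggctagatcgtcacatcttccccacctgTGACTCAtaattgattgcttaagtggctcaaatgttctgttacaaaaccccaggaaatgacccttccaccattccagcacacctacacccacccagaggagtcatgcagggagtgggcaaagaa
Cx3cr1 at 13.3 kb (chr9:120054937-120055136): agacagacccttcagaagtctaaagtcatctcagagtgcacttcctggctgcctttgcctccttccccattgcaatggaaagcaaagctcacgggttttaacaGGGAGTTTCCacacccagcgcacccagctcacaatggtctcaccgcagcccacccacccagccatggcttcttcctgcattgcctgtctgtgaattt
Fpr1 at −1.0 kb (chr17:17884849-17885048): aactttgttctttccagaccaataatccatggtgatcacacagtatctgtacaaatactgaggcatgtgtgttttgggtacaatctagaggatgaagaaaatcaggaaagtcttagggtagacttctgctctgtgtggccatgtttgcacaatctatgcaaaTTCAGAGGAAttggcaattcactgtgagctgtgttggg
Fpr1 at 5.5 kb (chr17:17878405-17878604): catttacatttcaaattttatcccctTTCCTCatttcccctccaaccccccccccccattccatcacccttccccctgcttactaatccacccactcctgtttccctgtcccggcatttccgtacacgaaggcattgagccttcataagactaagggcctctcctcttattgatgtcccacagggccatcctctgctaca
Fpr2 at 13.1 kb (chr17:17900863-17901062): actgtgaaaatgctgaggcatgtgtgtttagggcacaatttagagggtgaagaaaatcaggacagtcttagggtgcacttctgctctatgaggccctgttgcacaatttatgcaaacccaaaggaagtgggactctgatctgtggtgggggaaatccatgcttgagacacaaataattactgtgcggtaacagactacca

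In these windows the Cxcr4 element at 85.2 kb held a PU.1 and an AP-1 match, and the one at −129.9 kb held a STAT match with a 4-base spacer, an NF-kB, a PU.1, and an AP-1 match. At Fpr1, the match at −1.0 kb is a STAT match with a 4-base spacer that overlaps a PU.1 match, so both share their capitals. The window of Fpr2 at 13.1 kb held none of the 5 motifs in these letters. Of the 60 members' windows in that p300 list, 6 held the STAT motif with a 4-base spacer, 6 the one with a 3-base spacer, 3 the NF-kB motif, 26 the PU.1 motif, and 13 the AP-1 motif. In all 67020 windows of the list the shares were 11.2%, 8.90%, 4.51%, 41.3%, and 16.6%. In the p65 list, the same motifs were in 2, 1, 3, 11, and 7 of 29 windows, against 7.29%, 9.24%, 11.5%, 36.9%, and 25.6% of 26298 windows. The promoters of the 6 genes (RefSeq) held 1 PU.1 match at Ccr1, and 1 PU.1 match and 1 STAT match with a 3-base spacer at Fpr2, with no match at the other 4. Among all 32851 promoters, 28.3% held the PU.1 motif and 8.30% that STAT motif. The Fpr1 window at −1.0 kb and the Fpr2 window at 13.1 kb resembled each other, with 120 identical bases of 144 aligned (83.3%), while the next best pair of the 8 windows had 39 of 57. Whether reads were shared between these 2 elements was not tested.

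The levels of the 6 genes differed before any treatment. In the ctrl/ctrl lists of RNAPII-pS5, Cxcr4, Ccr1, and Fpr2 stood at percentiles 98.8, 98.2, and 96.5 of the genes with a peak in both replicates, Ccr2 at 91.2, and Cx3cr1 at 88.2, whereas Fpr1 stood at 9.0. In the untreated lists of the 1 hr experiment the percentiles for RNAPII-pS5 were 99.1 for Cxcr4, 93.0 for Fpr2, 91.4 for Ccr1, 57.8 for Ccr2, 56.2 for Cx3cr1, and 18.0 for Fpr1, so that Ccr2 and Cx3cr1 stood lower there. For p65 in the ctrl/ctrl lists the order was another one, with Fpr2 at 99.3, Cx3cr1 at 96.2, Cxcr4 at 90.8, Fpr1 at 87.6, Ccr1 at 79.9, and Ccr2 at 12.9. Percentiles compare summed scores, which grow with the number of peaks and are not corrected for length.

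The first comparison asked what IL-4 did to these genes within 1 hr. H3K27Ac fell at 4 of the 6 genes, Ccr2, Cxcr4, Fpr1, and Fpr2, by between 0.72 and 1.34 on the log2 scale, and p300 fell relative to all genes at 4, Ccr1, Cx3cr1, Fpr1, and Fpr2. RNAPII-pS5 was lower in the mean at all 6 genes but fell past the threshold at Cx3cr1 alone. Over the 8 antibodies 13 gene changes were called, or 10 without the RNAPII-pS2 lists in doubt. The shares of all genes called were 46.9% for H3K27Ac, 27.8% for p300, and at most 8.23% for any other antibody. With limma's moderation set without trend and robust fitting 5 of the 13 remained, H3K27Ac at 4 genes and p300 at Fpr2.

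Cxcr4 had the highest H3K27Ac signal of the 6 genes, 1349.8 and 1276 in the untreated lists and 802 and 788 after IL-4. Both IL-4 lists were below both untreated lists, a fall of −0.72 (SE 0.04, adjusted p = 0.000214, limma). Fpr1 had signals of 209 and 235 without and 109 and 102 with IL-4, and the groups did not overlap (−1.07, SE 0.09, adjusted p = 0.000657).
At Fpr2, the signal was 262 and 270.2 without IL-4 and 87.7 and 125 after IL-4, so that the IL-4 lists were again the lower ones (−1.34, SE 0.20, adjusted p = 0.0139). Without intergenic peaks that Fpr2 value was −2.08 and not called. Ccr2, the receptor for Ccl2, had 249 and 272 against 141 and 153, without overlap (−0.82, SE 0.08, adjusted p = 0.00116). Cx3cr1 was also lower in both IL-4 lists, with 166 and 85.6 against 62.9 and 38.2, but the replicates of a group differed as well and the change was not called (−1.28, SE 0.50, adjusted p = 0.169). For Ccr1 the values were 306 and 312 against 264 and 292, a change of −0.15 (SE 0.07, adjusted p = 0.149). Across all 13035 genes tested for H3K27Ac 46.9% were called, so 4 of 6 is not far from the background. The median change was −0.94 for the 6 genes and −0.01 for all genes.

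**Figure D1:**
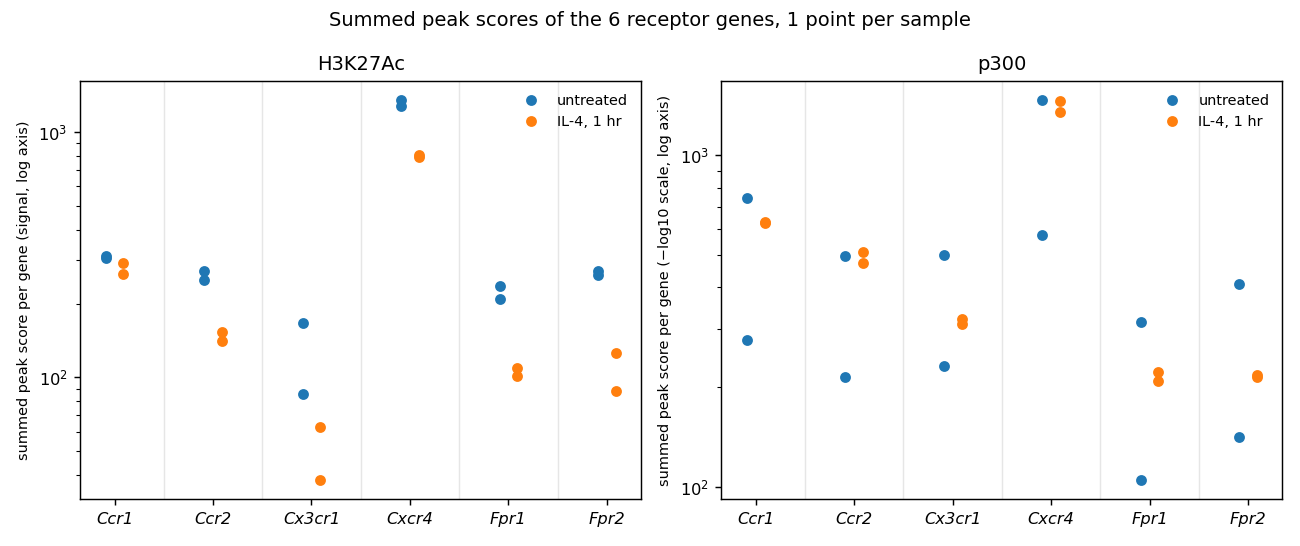
Summed peak scores of the 6 genes for H3K27Ac (left, signal) and p300 (right, −log10 scale) on log axes, with 1 point per sample for untreated cells and cells given IL-4 for 1 hr. For H3K27Ac both IL-4 points of each gene lie below both untreated points (Cxcr4 802 and 788 against 1349.8 and 1276), while for p300 the 2 untreated points of a gene are far apart (Cxcr4 576 and 1469).

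The H3K27Ac change was spread over many elements. Of 23 H3K27Ac sites of the 6 genes 15 were called, 14 lower and 1 higher, where 55.5% of all sites were called. The Fpr2 site at 13.1 kb had signals of 126 and 126 without IL-4 and 35.4 and 35.1 after IL-4 (−1.79, SE 0.08, adjusted p = 3.38e-05), far apart from each other. Cxcr4 lost signal near its start, at an element annotated as intronic and 0.8 kb downstream (394 and 358 against 222 and 232, −0.68), and at 6 distal sites between −22.9 and −232.9 kb, among which the one at −155.1 kb changed most (193 and 188 against 96.0 and 88.5, −0.99). The higher site was the Cxcr4 element at 85.2 kb, which had no H3K27Ac peak without IL-4 and signals of 17.9 and 16.0 after IL-4. At Cxcr4 the mark thus fell at 7 sites and appeared at 1. Ccr2 had its called site at −11.4 kb (249 and 236 against 141 and 121, −0.84), Cx3cr1 at its promoter (96.1 and 85.6 against 37.4 and 38.2, −1.21), and Ccr1 at 27.1 kb (182 and 187 against 148 and 136, −0.33).

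p300 showed the same element from another side. At 85.2 kb of Cxcr4 its scores were 15.1 and 38.9 without IL-4 and 187 and 201 after IL-4. All IL-4 values were above the others (2.33, SE 0.22, limma adjusted p = 7.56e-24). Here limma pooled the spread almost wholly over all p300 sites, so this p-value does not measure the spread between lists at this element. HDAC3 was also higher there, with 12.9 and 7.05 against 41.0 and 39.3 (1.78, SE 0.36, adjusted p = 0.00834), the single called HDAC3 site of 23 (2.31% of all sites were called). RNAPII-pS5 had no peak there without IL-4 and then 8.89 and 8.34 in the IL-4 lists. This element therefore gained H3K27Ac, p300, HDAC3, and RNAPII-pS5 at once, and it is the first of the sequences printed above. PU.1 (12.2 and 6.98 against 14.8 and 26.3), HDAC1 (7.67 and no peak against 12.0 and 7.89), and HDAC2 (3.70 and no peak against 21.0 and 11.9) were not called there. At the element at −155.1 kb the direction was the opposite. There p300 went from 55.0 and 134 to 52.9 and 51.1 (−1.39, but −0.72 and not called without centring). Untreated replicate 1, the p300 list with fewer and lower peaks, was near the IL-4 lists there. RNAPII-pS5 went from 22.1 and 15.7 to 6.56 and no peak.

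**Figure D2:**
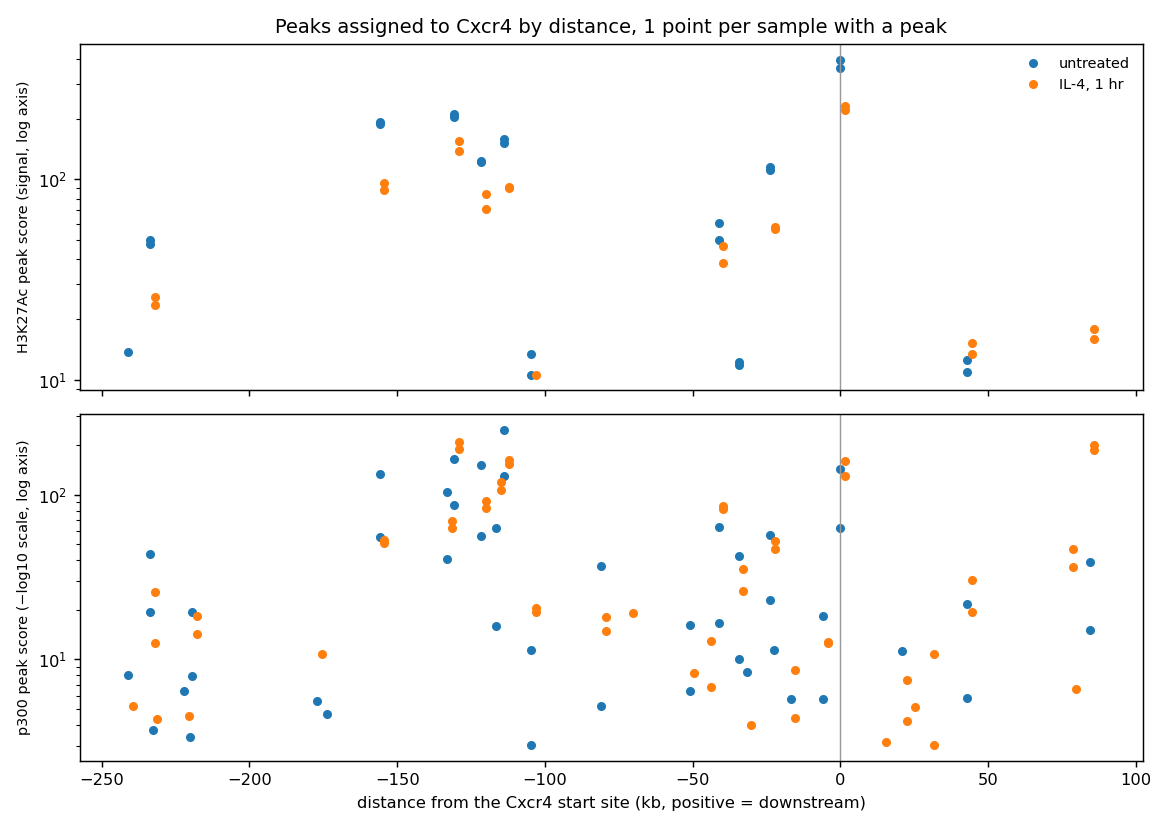
Scores of the H3K27Ac (top, signal) and p300 (bottom, −log10 scale) peaks assigned to Cxcr4 against the distance from its start site in kb, on log axes, with 1 point per sample that has a peak and none for samples without one. Points of the groups are moved slightly apart along the x axis so that both can be seen. The element at 85.2 kb has H3K27Ac points for IL-4 alone (17.9 and 16.0), while at −155.1 kb the IL-4 points (96.0 and 88.5) lie below the untreated ones (193 and 188).

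Summed p300 scores need the caution that untreated replicate 1 is the list with fewer and lower peaks, and that centring moved the genes by 0.85. Fpr2 had p300 scores of 141 and 409 untreated and 215 and 218 after IL-4, so the IL-4 values lay between the untreated ones before centring, and after it Fpr2 fell (−1.0, SE 0.13, adjusted p = 0.00147, but −0.15 and not called without centring). Cx3cr1 went from 232 and 501 to 311 and 322 (−0.96, SE 0.19, adjusted p = 0.00873), and it too was lower relative to the other genes, but not called without centring (−0.11) or with the highest peak alone (−0.54). Without intergenic peaks the values of Fpr1 (−0.37) and Ccr1 (−0.08) were not called either. Fpr1 went from 105 and 314 to 222 and 209, which was −0.61 (SE 0.13, adjusted p = 0.0143) with centring but 0.24 without, and Ccr1 from 278 and 746 to 623 and 629, which was −0.39 (SE 0.14, adjusted p = 0.0746) with and 0.46 without. Without either IL-4 list the Ccr1 call was lost (−0.40 without replicate 1 and −0.38 without replicate 2), and without IL-4 replicate 2 the Fpr1 call was (−0.54). Ccr2 (214 and 497 against 475 and 509.5, −0.26 with and 0.59 without centring) and Cxcr4 (576 and 1469 against 1356 and 1459, −0.24 and 0.61) were not called. Across all genes 27.8% were called for p300, and the median change was −0.50 for the 6 genes and −0.02 for all. Leaving out either untreated list left 1 in that group, so call counts of those fits cannot be set against the 27.8%.

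At single p300 sites, 21 of 59 were called, 5 higher and 16 lower (28.3% of all sites were called). Besides 85.2 kb, higher sites were those of Cxcr4 at −115.6 kb (16.0 and 63.2 against 108 and 120.1, 1.17) and at −40.4 kb (16.6 and 63.9 against 81.5 and 85.5, 0.69), and of Ccr1 at 18.9 kb (4.32 and 28.8 against 47.2 and 37.0, 1.24). Cxcr4 at 77.8 kb had a p300 peak after IL-4 only (36.2 and 47.1). Lower sites included Fpr2 at 2.2 kb (20.5 and 57.3 against 12.2 and 14, −2.06) and Ccr1 at 31.9 kb (18.2 and 42.2 against 8.21 and 19.4, −1.81). At Cx3cr1 3 sites were called lower. They lay in the 3′ UTR at 18.7 kb (35.5 and 107 against 39.8 and 39.2, −1.31), in an intron at 13.3 kb (28.2 and 81.5 against 27.1 and 29.0, −1.45), and at the promoter (26.0 and 66.6 against 19.8 and 33.6, −1.36). Their values without centring were −0.64, −0.78, and −0.69, and the IL-4 scores lay near those of untreated replicate 1.

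RNAPII-pS5, which marks polymerase early in transcription, fell at Cx3cr1, with scores of 71.2 and 49.2 without IL-4 and 33.1 and 16.5 after IL-4 and no overlap (−1.30, SE 0.31, adjusted p = 0.0466). Without IL-4 replicate 2 this call was lost (−0.84), as it was in the upper 50% of peaks (−0.44) and with the highest peak alone (−0.46). Cxcr4 had 250.4 and 227 against 181 and 159.9, also without overlap but not past the threshold (−0.44, SE 0.13, adjusted p = 0.117). For Ccr2 the values were 72.7 and 51.8 against 51.3 and 40.6 (−0.38), for Fpr2 159.7 and 122 against 109.9 and 118 (−0.25), for Fpr1 21.4 and 15.5 against 14.8 and 12.7 (−0.36), and for Ccr1 140.3 and 123 against 138 and 95.2 (−0.15). Every mean was lower after IL-4, but each of these 4 changes had an adjusted p of at least 0.363. Over all genes 5.5% were called for RNAPII-pS5, with a median of −0.01 against −0.37 for the 6 genes, and 2 of 36 sites were called where 4.31% of all sites were.

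HDAC3 had scores of 141 and 131 at Cx3cr1 without IL-4 and 102 and 113 after IL-4, both lower than before (−0.76, SE 0.18, adjusted p = 0.00264). That call was lost without untreated replicate 2 (−0.46) or IL-4 replicate 1 (−0.53) and without centring (−0.34), and 6.97% of all genes were called for HDAC3. For PU.1, no member and no site of 57 was called by limma, with a lowest adjusted p of 0.357 among the genes, while 3.02% of all genes and 0.418% of all sites were. At an unadjusted p of at most 0.05 there were 2 member genes and 7 member sites for PU.1. The shares just given do not apply to that threshold, so these counts have no background beside them and show no excess. For HDAC2 no member was called (0.65% of all genes and 0.0121% of all sites were). Its count at an unadjusted p of at most 0.05 was 0 genes and 3 sites, which cannot be set against those shares either. HDAC1 gave no limma call for any of 12319 genes or 27384 sites (0% of either), although 909 genes and 3034 sites had an unadjusted p of at most 0.05, among them 3 member sites.

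In the RNAPII-pS2 lists in doubt, the 6 genes moved the other way by the labels. Cxcr4 had 33.9 and 55.4 in lists labelled untreated and 94.5 and 119 in lists labelled IL-4, without overlap (1.37, SE 0.19, adjusted p = 0.000164). Ccr2 had 7.86 and 19.0 against 44.1 and 54.5 (2.08, SE 0.33, adjusted p = 0.000502) and Fpr2 had 12.0 and 15.6 against 33.9 and 46.0 (1.61, SE 0.31, adjusted p = 0.00357), so for these genes the lists labelled IL-4 were the higher ones. These 3 calls were lost without centring (1.29, 2.00, and 1.53 in the same order). Fpr1 had no peak in the lists labelled untreated and scores of 4.92 and 10.4 in the others. Ccr1 (0.07) and Cx3cr1 (0.33) were not called. By the names of the peaks these 3 changes would be falls. Among all genes 8.23% were called, with a median of 0.02 against 1.49 for the 6 genes. Of the 19 sites of the 6 genes 5 were called, all higher in the lists labelled IL-4 (6.4% of all sites), including Cxcr4 at 5.0 kb near its transcription end (16.0 and 25.8 against 54.0 and 63.7, 1.58), Ccr2 at 8.8 kb (7.86 and 13.7 against 29.6 and 42.0, 1.81), and Fpr2 at 22.3 kb (0.97).

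Ccl7, a Ccr2 ligand, showed how the labels of these lists stand against another antibody of the same experiment. RNAPII-pS5 at Ccl7 had a score of 5.88 in 1 of 2 untreated lists and 61.1 and 56.9 after IL-4 (4.27, SE 0.52, adjusted p = 0.00168). RNAPII-pS2 had 59.7 and 102 in the lists labelled untreated and no peak in those labelled IL-4. The directions by the labels are opposite.

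**Figure D3:**
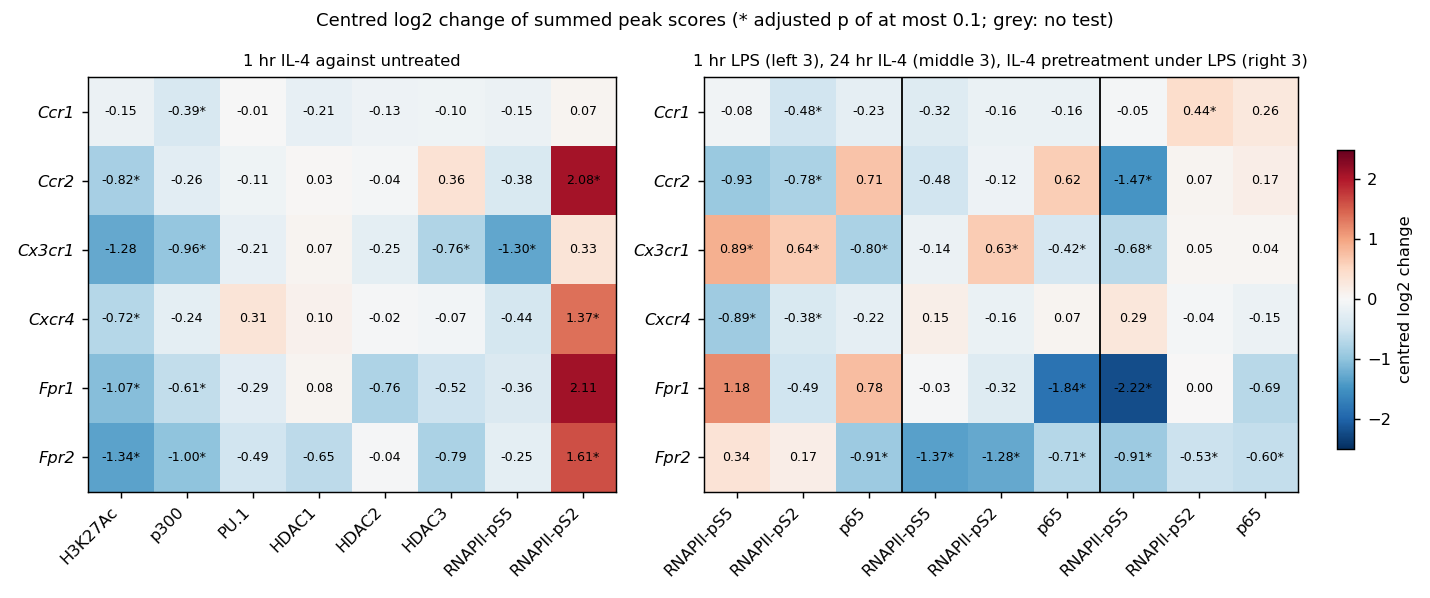
Centred log2 changes of the summed scores of the 6 genes (rows) by antibody (columns), for IL-4 of 1 hr against untreated (left) and for LPS, IL-4 of 24 hr, and IL-4 pretreatment under LPS (right). Red is higher, blue is lower, and an asterisk marks an adjusted p of at most 0.1. The RNAPII-pS2 column on the left follows labels that the peak names contradict, and its 2.11 for Fpr1 rests on the floor. Fpr2 is blue in all 6 columns of IL-4 for 24 hr and of pretreatment under LPS, from −0.53 to −1.37.

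The second comparison asked what 24 hr of IL-4 left behind at these genes, before any LPS. The ctrl/ctrl lists also serve as the reference of the LPS comparison below, so these comparisons are not independent. Fpr2, the receptor for annexin A1 and serum amyloid A, fell for all 3 antibodies. RNAPII-pS5 at Fpr2 was 72.5 and 58.4 in ctrl/ctrl and 23.7 and 29.8 in IL-4 PT/ctrl, without overlap (−1.37, SE 0.23, adjusted p = 0.0193). RNAPII-pS2 was 104 and 103 against 42.4 and 38.8 (−1.28, SE 0.14, adjusted p = 0.00195), and p65 was 141 and 149.5 against 87.0 and 74.0 (−0.71, SE 0.08, adjusted p = 0.00908), again with the pretreated lists lower. The RNAPII-pS5 call was lost without ctrl/ctrl replicate 1 (−1.27) or IL-4 PT/ctrl replicate 1 (−1.22).

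The intergenic element at 13.1 kb, downstream of the gene, held all of the Fpr2 p65 score in the lists of both groups. It was also the highest Fpr2 element in their RNAPII lists, except in IL-4 PT/ctrl replicate 1 of RNAPII-pS5, where the element at 22.3 kb was higher (16.02 against 7.70). At 13.1 kb RNAPII-pS5 went from 35.5 and 33.4 to 7.70 and 14.5 (−1.72, SE 0.35, adjusted p = 0.0241), RNAPII-pS2 from 57.7 and 45.6 to 21.3 and 20.6 (−1.24, SE 0.19, adjusted p = 0.00561), and p65 from 141 and 150 to 87.0 and 74.0 (−0.66, adjusted p = 0.00819). The pretreated lists were lower than both controls for every antibody. Without intergenic peaks the summed change of Fpr2 turned to 0.24 for RNAPII-pS2 and 0.14 for p65, and that of RNAPII-pS5 was not called (−1.31).

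Fpr1 lost p65, with 50.01 and 41.1 in ctrl/ctrl and 8.17 and 16.1 in IL-4 PT/ctrl and no overlap (−1.84, SE 0.35, adjusted p = 0.0355), a call that was lost without ctrl/ctrl replicate 1 (−1.70) or with the highest peak alone (−0.90). Its p65 peaks at −1.0 kb (15.1 and 12.4) and at 5.5 kb (7.83 and 6.51) were in both ctrl/ctrl lists and in no IL-4 PT/ctrl list. At the level of RNAPII, Fpr1 was low and not called (RNAPII-pS5 7.78 and 3.85 against 6.14 and 5.21, RNAPII-pS2 24.1 and 33.0 against 22.8 and 20.4).

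Cx3cr1 moved apart between antibodies. RNAPII-pS2, which marks elongating polymerase, rose from 86.0 and 94.5 to 131 and 135, with no overlap (0.63, SE 0.10, adjusted p = 0.00881), while RNAPII-pS5 stayed between 34.6 and 40.3 in these 4 lists (−0.14, adjusted p = 0.644). p65 was lower, with 74.7 and 87.5 against 56.8 and 52.9 (−0.42, SE 0.10, adjusted p = 0.0569), a call that was lost without any 1 of 7 of the 8 lists, at values from −0.42 to −0.36. With the highest peak alone neither Cx3cr1 change was called (0.31 for RNAPII-pS2 and 0.0017 for p65). RNAPII-pS2 gained a peak in the 3′ UTR at 18.7 kb, absent from ctrl/ctrl and scored 38.2 and 40.7 after IL-4, and lost its peak in the intron at 13.3 kb, scored 8.82 and 8.28 in ctrl/ctrl. Ccr1, Ccr2, and Cxcr4 were not called for any of the 3 antibodies. Called genes among all were 14.5% (RNAPII-pS5), 27.2% (RNAPII-pS2), and 15.9% (p65), against 1, 2, and 3 of the 6 genes. At sites the counts were 9 of 34 (23.4% of all sites), 13 of 40 (33.2%), and 5 of 22 (12.5%).

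The third comparison was that of LPS for 1 hr in cells without IL-4. RNAPII at the chemokine receptor genes split. Cx3cr1 rose for both RNAPII antibodies, whereas Cxcr4 fell for both, and Ccr1 and Ccr2 fell for RNAPII-pS2. The median change of all genes was itself −0.45 for RNAPII-pS5 and −0.27 for RNAPII-pS2. The RNAPII-pS2 falls of Cxcr4 (−0.38) and Ccr1 (−0.48) were therefore not far from that of a typical gene. The formyl peptide receptor genes were not called for RNAPII. p65 scores were higher at all 6 genes before centring.

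RNAPII-pS5 at Cx3cr1 was 40.3 and 34.6 in ctrl/ctrl and 52.6 and 57.8 in ctrl/LPS, without overlap (0.89, SE 0.14, adjusted p = 0.0066). RNAPII-pS2 was 86.0 and 94.5 against 176 and 153 (0.64, SE 0.10, adjusted p = 0.0047), so the LPS lists were higher for both antibodies. Both calls held without any 1 list, but with the highest peak alone the RNAPII-pS2 change was 0.06 and not called. The RNAPII-pS5 rise included the site at 9.4 kb (29.9 and 29.2 against 36.4 and 48.9, 0.69), and the 3′ UTR site at 18.7 kb, which had no peak in ctrl/ctrl, had RNAPII-pS5 scores of 7.80 and 8.90 and RNAPII-pS2 scores of 42.3 and 53.3 after LPS.

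Cxcr4 had RNAPII-pS5 scores of 105 and 85.5 in ctrl/ctrl and 31.2 and 53.3 in ctrl/LPS, both lower (−0.89, SE 0.23, adjusted p = 0.0304). That call was lost without ctrl/ctrl replicate 1 (−0.81) or ctrl/LPS replicate 1 (−0.47), and with the highest peak alone (−0.18). RNAPII-pS2 was 186 and 187 against 163 and 172 (−0.38, SE 0.09, adjusted p = 0.0201), and without ctrl/LPS replicate 1 (−0.27) or without centring (−0.15) that call was lost. The site at the end of the gene, at 5.0 kb, had scores of 13.6 and 7.62 (RNAPII-pS5) and 6.18 and 9.23 (RNAPII-pS2) in ctrl/ctrl and no peak of either antibody in any of the 4 lists per antibody that had LPS. At 0.8 kb, near the start, RNAPII-pS5 went from 16.4 and 15.9 to no peak and 5.28.

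Ccr2 had RNAPII-pS2 scores of 68.1 and 59.6 in ctrl/ctrl and 35.1 and 53.2 in ctrl/LPS (−0.78, SE 0.23, adjusted p = 0.0355), a call lost without ctrl/ctrl replicate 1 (−0.74), ctrl/ctrl replicate 2 (−0.84), or ctrl/LPS replicate 1 (−0.42), and with the highest peak alone (−0.14) or without centring (−0.56). RNAPII-pS5 was 41.6 and 45.9 against 15.1 and 22.1, without overlap but not called (−0.93, SE 0.42, adjusted p = 0.148). The Ccr2 site at 8.8 kb, past the end of the gene, had RNAPII-pS5 scores of 12.5 and 11.6 in ctrl/ctrl and no peak after LPS. Ccr1 had RNAPII-pS2 scores of 136 and 129.5 against 114 and 108 (−0.48, SE 0.12, adjusted p = 0.0191), which turned to 0.33 without intergenic peaks and to 0.07 with the highest peak alone, and was not called without centring (−0.26).

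Ccr1 itself held elements that moved in both directions. At 44.7 kb RNAPII-pS5 rose from 18.2 and 20.1 to 45.9 and 37.6 (1.3, adjusted p = 0.0167), and RNAPII-pS2 was 20.9 and 21.1 against 33.9 and 31.9. At 27.1 kb RNAPII-pS5 scores of 11.7 and 18.8 were replaced by no peak, and at 14.9 kb RNAPII-pS2 scores of 24.3 and 18.6 were. At 31.9 kb no peak in ctrl/ctrl was followed by RNAPII-pS2 scores of 21.8 and 29.7 and p65 scores of 29.1 and 30.2. The values for the Ccr1 gene are therefore sums of elements with unlike changes.

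p65 lists held 9706 and 9556 peaks in ctrl/ctrl and 26305 and 26820 in ctrl/LPS, and centring took out a shift of 1.64 over shared genes. Fpr1 had p65 scores of 50.01 and 41.1 against 253 and 232, Fpr2 had 141 and 149.5 against 249 and 233, and Ccr1 had 35.7 and 30.5 against 88.3 and 87.5. Cx3cr1 had 74.7 and 87.5 against 146 and 144, Cxcr4 had 49.6 and 56.95 against 132 and 154, and Ccr2 had 6.94 and 4.77 against 28.9 and 29.8. Every LPS list was above every control list for each gene. Without centring the changes ran from 0.73 (Fpr2) to 2.42 (Fpr1), while relative to the shared genes Fpr2 fell (−0.91, SE 0.08, adjusted p = 0.00157, but 0.73 without centring) and Cx3cr1 fell (−0.80, SE 0.10, adjusted p = 0.0029, but 0.84 without). The other 4 were not called, with centred changes of 0.78 (Fpr1), 0.71 (Ccr2), −0.22 (Cxcr4), and −0.23 (Ccr1).

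Some single p65 sites rose beyond the shared shift. Fpr1 at −1.0 kb had p65 scores of 15.1 and 12.4 in ctrl/ctrl and 125 and 122 in ctrl/LPS (2.13, SE 0.17, adjusted p = 0.000689). Fpr1 at 5.5 kb had 7.83 and 6.51 against 68.9 and 71.7 (2.26, SE 0.25), so both Fpr1 elements rose while Fpr2 at 13.1 kb, with 141 and 150 against 216 and 222, changed by −0.45 relative to the shared sites and by 0.59 without centring. The share of called genes among all was 39.6% with RNAPII-pS5, 42.6% with RNAPII-pS2, and 40.9% with p65, against 2, 4, and 2 of the 6. At sites, the counts were 18 of 34 (42.1% of all sites), 23 of 40 (45.7%), and 13 of 29 (46.6%). The members' counts were near the background.

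**Figure D4:**
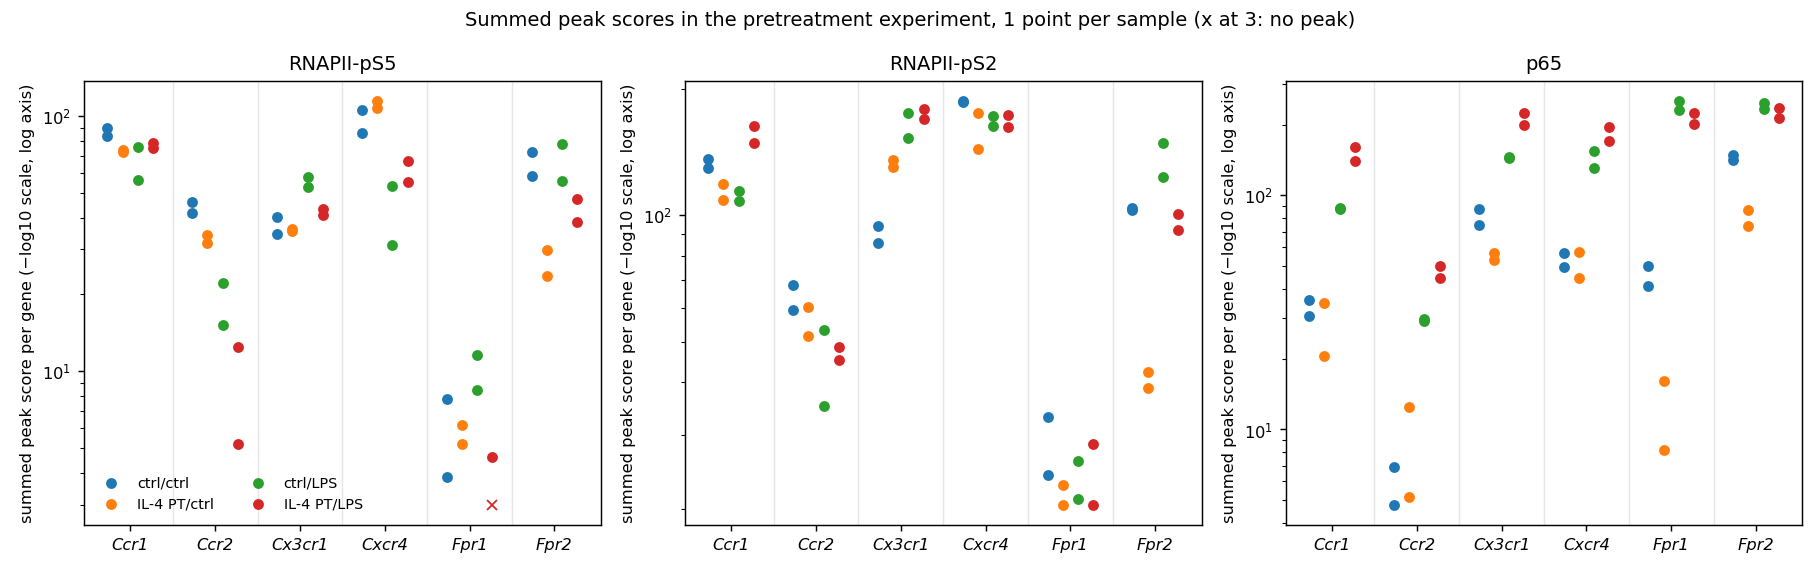
Summed peak scores of the 6 genes (−log10 scale, log axes) for RNAPII-pS5, RNAPII-pS2, and p65 in ctrl/ctrl, ctrl/LPS, IL-4 PT/ctrl, and IL-4 PT/LPS, with 1 point per sample and a cross at 3 for a sample without a peak. At Fpr2 the RNAPII-pS2 points of IL-4 PT/ctrl (42.4 and 38.8) lie below all others, and for p65 all LPS points lie above the points without LPS.

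The fourth comparison set IL-4 PT/LPS against ctrl/LPS, which asks how a preceding exposure to IL-4 changed the state reached after LPS and shares its ctrl/LPS lists with the third. RNAPII-pS5 was lower at 4 of the 6 genes, Ccr2, Cx3cr1, Fpr1, and Fpr2, where 21.8% of all genes were called and the median change was −0.79 for the 6 and 0.23 for all. Cx3cr1 had 52.6 and 57.8 in ctrl/LPS and 43.1 and 40.9 in IL-4 PT/LPS, without overlap (−0.68, SE 0.14, adjusted p = 0.0289), a call lost without IL-4 PT/LPS replicate 2 (−0.63) or without centring (−0.39). Fpr2 had 77.5 and 55.6 against 47.2 and 38.6 (−0.91, SE 0.23, adjusted p = 0.0514), lost without ctrl/LPS replicate 1 (−0.68), IL-4 PT/LPS replicate 1 (−1.05), or IL-4 PT/LPS replicate 2 (−0.75), without centring (−0.62), or with the highest peak alone (−0.10). Ccr2 had 15.1 and 22.1 against 5.20 and 12.5, also lower in both lists (−1.47, SE 0.42, adjusted p = 0.0718), but the call was lost without any 1 of 7 of the 8 lists, at values from −1.75 to −0.84, and without centring (−1.18) or without intergenic peaks (−0.39). Fpr1 had 8.43 and 11.6 against no peak and 4.61 (adjusted p = 0.0764), a value that rests on the floor and was lost without any 1 of 6 lists, and without centring (−1.94).

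Fpr2 was called lower under pretreatment for all 3 antibodies after centring, and without centring for none of them except RNAPII-pS2. RNAPII-pS2 was 148 and 123 against 101 and 92.2 (−0.53, SE 0.14, adjusted p = 0.0491), lost without ctrl/LPS replicate 1 (−0.45), ctrl/LPS replicate 2 (−0.64), IL-4 PT/LPS replicate 1 (−0.59), or IL-4 PT/LPS replicate 2 (−0.49). p65 was 249 and 233 against 215 and 237, where the groups overlapped before centring (−0.60, SE 0.08, adjusted p = 0.0106, but −0.095 and not called without centring), and that call was lost without IL-4 PT/LPS replicate 1 (−0.59) or replicate 2 (−0.61) and turned to 0.35 without intergenic peaks. At the Fpr2 site at 2.2 kb, RNAPII-pS5 was 17.7 and 11.6 against 6.08 and 3.26, and at 30.1 kb RNAPII-pS2 was 43.9 and 39.2 against 27.2 and 19.4. Fpr1 at −1.0 kb had p65 scores of 125 and 122 against 87.4 and 91.8 (−0.73, SE 0.17, adjusted p = 0.0223), and at 5.5 kb 68.9 and 71.7 against 86.5 and 62.6.

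Ccr1 went the other way for RNAPII-pS2, with 114 and 108 in ctrl/LPS and 149 and 164 in IL-4 PT/LPS and no overlap (0.44, SE 0.12, adjusted p = 0.053). That call was lost without ctrl/LPS replicate 1 (0.43), ctrl/LPS replicate 2 (0.44), IL-4 PT/LPS replicate 1 (0.53), or IL-4 PT/LPS replicate 2 (0.36), and it turned to −1.21 without intergenic peaks. Its element at 31.9 kb, with an AP-1 match in the window printed above, had RNAPII-pS2 scores of 21.8 and 29.7 against 59.6 and 55.9 (1.24, SE 0.23, adjusted p = 0.0148). There p65 was 29.1 and 30.2 against 43.2 and 45. Cxcr4 was not called at the gene level for any antibody, but its p65 site at −80.2 kb was higher after pretreatment (8.24 and 7.92 against 32.1 and 29.6, 1.66, SE 0.18, adjusted p = 0.0013) and that at 43.7 kb was lower (23.6 and 20.6 against 11.1 and 7.08, −1.58). In Cx3cr1, RNAPII-pS5 at 9.4 kb was 36.4 and 48.9 against 22.8 and 19.8 (−1.18, SE 0.15, adjusted p = 0.00658). Of all genes 19.5% (RNAPII-pS2) and 17.8% (p65) were called, against 2 and 1 of the 6. At sites the counts were 8 of 27 with RNAPII-pS5 (24.1% of all sites), 2 of 34 with RNAPII-pS2 (25.9%), and 12 of 35 with p65 (37.1%).

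**Figure D5:**
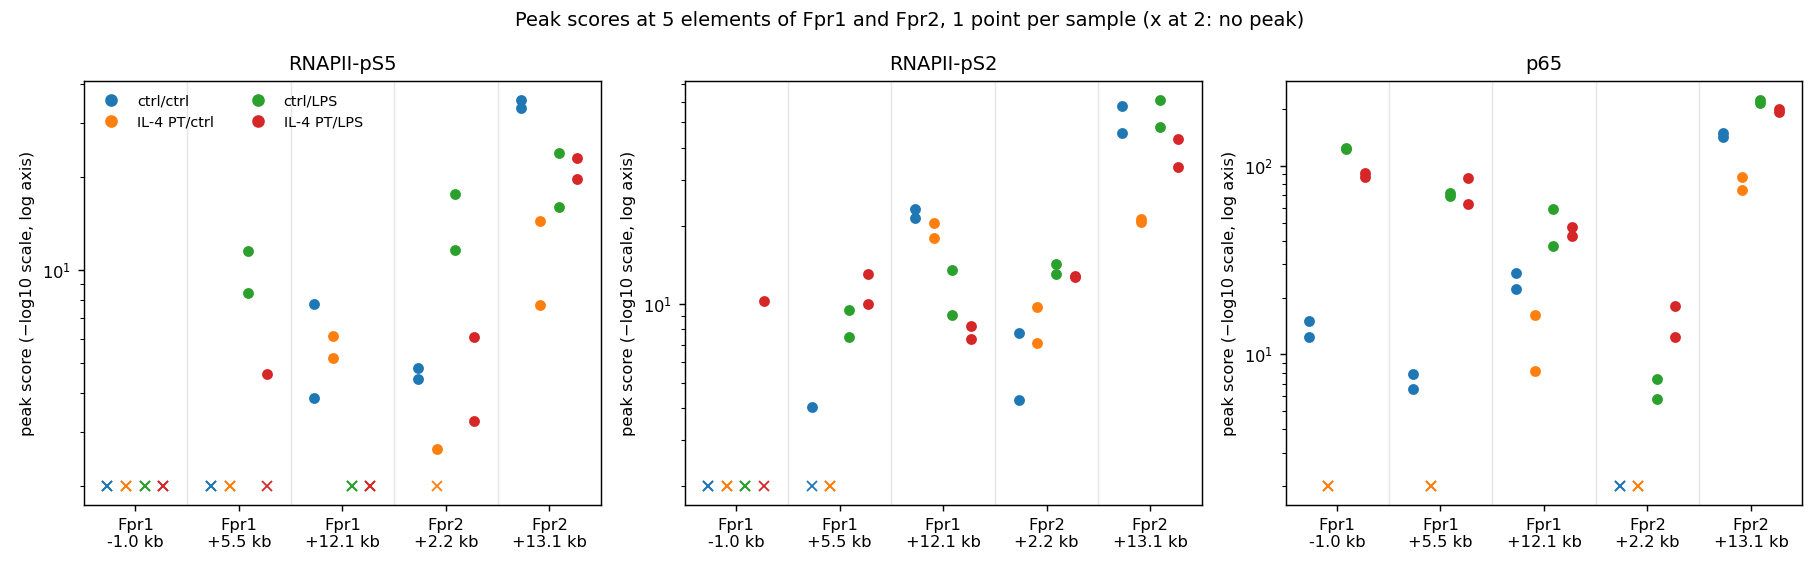
Peak scores (−log10 scale, log axes) at 3 elements of Fpr1 and 2 of Fpr2, named by their distance from the start site in kb, for RNAPII-pS5, RNAPII-pS2, and p65 in the 4 groups, with 1 point per sample and a cross at 2 for a sample without a peak. At Fpr1 −1.0 kb p65 has no peak in IL-4 PT/ctrl and scores of 125 and 122 in ctrl/LPS, and at Fpr2 13.1 kb the IL-4 PT/ctrl points (87.0 and 74.0) are the lowest for p65.

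The response to LPS after pretreatment, IL-4 PT/LPS against IL-4 PT/ctrl, shares both groups with comparisons above. Fpr2 rose for RNAPII-pS2, from 42.4 and 38.8 to 101 and 92.2, without overlap (0.91, SE 0.14, adjusted p = 0.00483), and for RNAPII-pS5, from 23.7 and 29.8 to 47.2 and 38.6 (0.80, SE 0.23, adjusted p = 0.0519). The latter call was lost without IL-4 PT/ctrl replicate 1 (0.64), IL-4 PT/ctrl replicate 2 (0.93), or IL-4 PT/LPS replicate 1 (0.66), and with the highest peak alone (0.49). Without intergenic peaks the RNAPII-pS2 value was 0.33 and not called. Fpr1 rose for p65, from 8.17 and 16.1 to 224 and 202 (1.92, SE 0.35, adjusted p = 0.012), and this held without any 1 list. Ccr2 fell for RNAPII-pS5, from 34.1 and 31.7 to 5.20 and 12.5 (−1.92, SE 0.42, adjusted p = 0.0223), lost without IL-4 PT/ctrl replicate 1 (−1.85) or with the highest peak alone (−0.65). Cxcr4 fell for RNAPII-pS5, from 107 and 114 to 55.0 and 66.8, without overlap (−0.76, SE 0.23, adjusted p = 0.06), lost without any 1 of the 4 lists compared, at values from −0.88 to −0.61, and with the highest peak alone (−0.42).

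The other calls of this comparison depended on the centring. Cxcr4 had RNAPII-pS2 scores of 144 and 175 against 173 and 162, which overlap (−0.26, adjusted p = 0.0803, but 0.08 without centring), lost without IL-4 PT/ctrl replicate 2 (−0.21), IL-4 PT/LPS replicate 1 (−0.29), or IL-4 PT/LPS replicate 2 (−0.23). For p65 the shared shift was 2.29. Relative to it, Fpr2 fell (87.0 and 74.0 against 215 and 237, −0.80, adjusted p = 0.00202, but 1.49 without centring), Cxcr4 fell (57.1 and 44.6 against 170.1 and 196, −0.43, adjusted p = 0.0619, but 1.86 without), and Cx3cr1 fell (56.8 and 52.9 against 199 and 225, −0.34, adjusted p = 0.0445, but 1.95 without). The calls of Cxcr4 and Cx3cr1 were lost without IL-4 PT/LPS replicate 1 (−0.39 and −0.31) or replicate 2 (−0.48 and −0.37), and that of Cxcr4 also without IL-4 PT/ctrl replicate 1 (−0.32). Of all genes 31% (RNAPII-pS5), 35.2% (RNAPII-pS2), and 37.4% (p65) were called, against 3, 2, and 4 of the 6. At sites the counts were 16 of 32 (38.1% of all sites), 18 of 38 (41.2%), and 18 of 34 (47.7%).

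Whether the LPS response differed between pretreated and other cells was tested as an interaction. At the gene level 3 of the 6 were called, all for RNAPII-pS2, where 10.2% of all genes were. At Fpr2 the LPS change was 0.75 higher after pretreatment (SE 0.19, adjusted p = 0.0764), at Ccr1 it was 0.60 higher (SE 0.16, adjusted p = 0.0877), and at Cx3cr1 it differed by −0.58 (SE 0.15, adjusted p = 0.0746). Each of these calls was lost without any 1 of 7 of the 8 lists, at values from 0.59 to 0.83 for Fpr2, 0.44 to 0.67 for Ccr1, and −0.66 to −0.48 for Cx3cr1. Without intergenic peaks the Fpr2 value turned to −0.68, and with the highest peak alone none of the 3 was called (Fpr2 0.68, Ccr1 0.63, and Cx3cr1 −0.18). None was called without trend and robust fitting, and 1, Fpr2, with a replicate block. No member was called by limma for RNAPII-pS5 (9.87% of all genes) or p65 (10.6%), although Cx3cr1 had an unadjusted p of 0.0322 and 0.0142, respectively. At sites the counts were 10 of 38 with RNAPII-pS5 (22.2% of all sites), 9 of 41 with RNAPII-pS2 (25%), and 8 of 36 with p65 (27.9%).

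Genes that surround these receptors in function were described by lists. These held 32 other chemoattractant receptors, 14 genes taken as ligands of the 6 receptors, and 30 signalling genes. Of them 26, 14, and 28 had a peak name in any list. After 1 hr of IL-4, H3K27Ac rose at 4 and fell at 9 of 18 tested receptor genes (median −0.31, all genes −0.01), rose at 3 and fell at 9 of 13 ligand genes (−0.22), and rose at 7 and fell at 8 of 27 signalling genes (−0.04), where 46.9% of all genes were called. Ccr3, a neighbour of Ccr1 and Ccr2 on chromosome 9 and the eotaxin receptor, had signals of 348 and 369.6 untreated and 201 and 195 after IL-4 (−0.85, adjusted p = 0.000405). Ptafr, the receptor for platelet-activating factor, had 1291 and 1223 against 737 and 694 (−0.81), so both fell without overlap.

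The ligands went in both directions. Ccl4 had H3K27Ac signals of 226 and 234 against 38.7 and 37.8 (−2.58, adjusted p = 2.74e-05), whereas the Ccr2 ligand gene Ccl12 had 35.0 and 32.8 against 178 and 172 (2.38) and Ccl8 had 10.4 and 10.9 against 65.6 and 68.7 (2.66). PU.1 was higher at Ccl2, with 313 and 263 against 506 and 558 (0.60, adjusted p = 0.0204). RNAPII-pS5 was called at 2 higher and 1 lower of 12 ligand genes (5.5% of all genes), and at Ccl12 it was 13.6 and 4.86 against 40.1 and 37.6 (2.30, adjusted p = 0.0156). No receptor gene of 21 was called for RNAPII-pS5. Of the signalling genes, Rgs1, which switches off Gi signals, rose for H3K27Ac (426 and 394 against 1061 and 1139, 1.43) and for RNAPII-pS5 (163 and 106 against 227 and 204, 0.75, adjusted p = 0.0055). Its relative Rgs2 fell for H3K27Ac (1219 and 1198 against 804 and 789, −0.59) while its RNAPII-pS5 was 165 and 132 against 201 and 191 (0.45, adjusted p = 0.0685). For p300, 3 rose and 3 fell of 23 receptor genes, 3 and 4 of 14 ligand genes, and 3 and 6 of 27 signalling genes (27.8% of all genes).

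Annexin A1 (Anxa1), an Fpr2 ligand gene, changed against the direction of its receptor after 24 hr of IL-4. RNAPII-pS2 at Anxa1 was 14.3 and 15.8 in ctrl/ctrl and 67.1 and 75.2 in IL-4 PT/ctrl, without overlap (2.31, SE 0.22, adjusted p = 0.00149). It was 30.3 and 41.3 in ctrl/LPS and 65.4 and 74.9 in IL-4 PT/LPS (0.94, adjusted p = 0.0406). For RNAPII-pS2 the 24 hr exposure called 3 higher and 4 lower of 21 receptor genes, 3 and 4 of 13 ligand genes, and 4 and 7 of 26 signalling genes (27.2% of all genes). After LPS, RNAPII-pS5 rose at 7 and fell at none of 12 ligand genes, rose at 5 and fell at 2 of 21 receptor genes, and rose at 5 and fell at 8 of 26 signalling genes, against 39.6% of all genes called. Ccl7 had RNAPII-pS5 scores of 5.94 and 6.89 in ctrl/ctrl against 54.4 and 66.1 in ctrl/LPS (3.55), and Ccl4 had 17.7 and 28.5 against 90.6 and 85.9 (2.30). p65 relative to the shared genes rose at 7 and fell at 3 of 20 receptor genes and rose at 7 and fell at 1 of 14 ligand genes (40.9% of all genes), with Ccr3 at 8.09 and 13.9 against 156 and 119.8 (2.05, adjusted p = 0.013). Under LPS, pretreatment lowered RNAPII-pS5 at C3ar1, the receptor for complement C3a, from 115 and 110.1 to 67.1 and 66.2 (−1.04, adjusted p = 0.00902), the single receptor gene of 19 that was called (21.8% of all genes).

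The genes with the pattern most like that of a member were taken from the centred RNAPII-pS5 values in the 8 lists of the second experiment, among 5015 genes with a peak in all 8, and are a description over 8 lists that share their groups. Fpr2 was most like Tlr2 (Pearson r = 0.979), Il23a (0.972), and Mycl1 (0.962). Cx3cr1 was most like Rps12 (0.987), 4930415F15Rik (0.977), and Myd88 (0.977), and Ccr2 like Snord104 (0.984), Nav2 (0.979), and St6gal1 (0.978). Cxcr4 had Mir1968 (0.975), Tomt (0.966), and Nxnl2 (0.963), and Ccr1 had Mir5104 (0.978), Rnls (0.910), and Cmya5 (0.897). Fpr1 lacked a peak in 1 list and was left out.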

How the data were processed

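ChIP-seq peak lists of 56 samples (9 antibodies, 28 groups of 2 replicates) were analyzed. Chromatin was double cross-linked. According to the methods and the submitters' processing notes, the authors aligned reads with BWA (0.7.10) to mm10, used SAMtools (0.1.19), called peaks with MACS2 (2.0.10) or, for H3K27Ac, HOMER (4.2), took out blacklisted regions, and used HOMER for peak annotation. Treatment of multiply mapped reads is not given in the sources used here. The deposited score is a −log10 p-value or q-value for MACS2 lists, which of them could not be settled, and a signal of normalized tags for H3K27Ac.

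Peak scores were summed per gene name. Peaks of an antibody and experiment overlapping by at least 1 bp formed a site, valued at the highest score. Missing values took the lowest score, features with a peak in at least 2 samples were kept, and features without a peak in either compared group were not counted, a restriction set after seeing the data. Values were log2 transformed, centred on the median of features that had peaks in all samples, and fitted with limma (3.58.1, R 4.3.3, trend and robust) per antibody over 4 samples (1 hr IL-4) or 8 samples (LPS experiment), with Benjamini-Hochberg adjustment over all features and a threshold of 0.1. Python (3.11.15), pandas (2.3.3), numpy (2.4.6), and matplotlib (3.10.9) were used.

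The 6 genes and the lists were chosen with earlier results of these data known. Named were the members, their called sites and highest sites, the 3 most similar genes per member, and up to 3 called genes of largest change per list and contrast. Ccl2, Ccl7, and Ccl12 were also named to set the labels against the peak names. Deviations of replicates with the same number hardly correlated between groups (between −0.0476 and 0.0660). The labels do not say whether samples were paired, and the main fit used no pairing. On simulated data the fit called 42% of 50 genes changed by a log2 of 0.5 and 88% by 1 for H3K27Ac (13028 genes), 0% and 6% for p300 (15696 genes), and 0% and 6% for p65 after LPS (12312 genes). Each simulation changed 200 genes in all. In the data 46.9% (H3K27Ac), 27.8% (p300), and 40.9% (p65 after LPS) of genes were called, so the simulated rates do not carry over to these comparisons. Alternatives covered centring, quantile normalization, filters, floor, thresholds, overlap, how scores were summed, moderation, a replicate block, and leaving out each sample.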

Additional observations from a re-analysis of the deposited data

Results flagged for a closer look

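The LPS change differed between pretreated and other cells, by the interaction term of limma at an adjusted p of at most 0.1, in the following cases, each given as the log2 LPS change after pretreatment minus that without it. For whole genes these were Ccr1 (0.60), Cx3cr1 (−0.58), and Fpr2 (0.75), all for RNAPII-pS2.

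For 5 sites there was a peak in all 8 lists. Fpr2 at 13.1 kb differed by 1.65 for RNAPII-pS5 and by 0.79 for RNAPII-pS2, where the IL-4 PT/ctrl lists were the low ones (21.3 and 20.6). Cxcr4 at −113.0 kb differed by 1.19 and Ccr1 at 44.7 kb by 1.28 for RNAPII-pS2, and again IL-4 PT/ctrl was lowest (28.1 and 25.9 at Cxcr4, 9.88 and 9.78 at Ccr1). Cx3cr1 at 9.4 kb differed by −1.15 for RNAPII-pS5, with 22.8 and 19.8 in IL-4 PT/LPS below the other groups.

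The other sites lacked a peak in at least 1 list, so their values depend on the floor. For RNAPII-pS5 these were Cxcr4 at −40.4 kb (1.92), Fpr2 at 8.3 kb (−2.64), Cx3cr1 at 18.7 kb (−1.74) and −0.5 kb (1.56), Ccr1 at 40.1 kb (−2.84) and 18.9 kb (−2.32), and Ccr2 at −30.5 kb (−2.34). For RNAPII-pS2 they were a further site at 13.1 kb of Fpr2 (3.27), Fpr2 at 30.1 kb (2.30), Cx3cr1 at 18.7 kb (−4.97) and 13.3 kb (2.92), and Ccr1 at 31.9 kb (−2.45) and 17.3 kb (2.35). For p65 they were Cxcr4 at −80.2 kb (1.47), Fpr1 at 5.5 kb (2.05) and −1.0 kb (2.46), and Ccr1 at 27.1 kb (1.82). At Cxcr4 −40.4 kb, Cx3cr1 −0.5 kb, and Ccr1 17.3 kb only ctrl/ctrl had peaks, and at Ccr1 40.1 and 18.9 kb only IL-4 PT/ctrl did for RNAPII-pS5. These sites lacked a peak in both LPS groups, so the difference lies in the groups without LPS. The same holds for p65 at Ccr1 27.1 kb, where ctrl/ctrl alone had peaks (4.87 and 8.35).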

How the results depend on the processing

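Calls of member genes and sites were 13 and 44 (1 hr IL-4), 8 and 54 (1 hr LPS), 6 and 27 (24 hr IL-4), 7 and 22 (pretreatment under LPS), 9 and 52 (LPS after pretreatment), and 3 and 27 (interaction). Leaving out 1 sample gave 11 to 16 and 31 to 52, 5 to 9 and 31 to 55, 4 to 5 and 15 to 28, 1 to 6 and 9 to 24, 4 to 10 and 32 to 49, and 0 to 2 and 15 to 25. Over all alternatives, values of called genes kept direction and call in 652 cases, lost the call in 194, and turned direction in 19 (sites 1606, 369, and 14).
Without centring there were 5 genes and 17 sites for 1 hr IL-4, 4 genes for pretreatment under LPS, and 5 for the interaction. All 17 sites were for H3K27Ac. Without trend and robust moderation there were 5, 3, 1, 4, and 0 genes for 1 hr IL-4, 24 hr IL-4, pretreatment under LPS, LPS after pretreatment, and the interaction. Without intergenic peaks there were 7, 4, and 5 genes for 1 hr IL-4, pretreatment under LPS, and LPS after pretreatment. With the highest peak score there were 4 for pretreatment under LPS and 1 for the interaction. At an unadjusted p of 0.05 there were 82 sites for 1 hr IL-4 and 5 genes for the interaction, and at an adjusted p of 0.05 there were 3, 5, and 0 genes for the last 3 comparisons. The shares of all genes and sites given above do not apply to these thresholds. Sites with a peak in every sample gave 10, 8, 3, 9, and 6 for the 5 comparisons of the LPS experiment, the upper 50% of peaks gave 34 (1 hr LPS) and 16 (24 hr IL-4), and a floor 4 times as high gave 17 (24 hr IL-4). With a replicate block, although replicates with the same number hardly correlated, the interaction had 1 gene.
Directions turned without centring for p300 at Ccr1 (0.46), Fpr1 (0.24), and the sites Cxcr4 −132.4 kb (0.031), Fpr1 12.1 kb (0.13), Fpr2 13.1 kb (0.0016), and Ccr2 −30.5 kb (0.075), for RNAPII-pS2 at Cxcr4 (LPS after pretreatment, 0.076), for p65 after LPS at Cx3cr1 (0.84), Fpr2 (0.73), and Fpr2 13.1 kb (0.59), and for p65 in LPS after pretreatment at Cx3cr1 (1.95), Cxcr4 (1.86), Fpr2 (1.49), Fpr2 13.1 kb (1.29), and Cxcr4 −129.9 kb (0.76). Without intergenic peaks they turned for RNAPII-pS2 at Ccr1 (LPS 0.33, pretreatment under LPS −1.21) and Fpr2 (24 hr IL-4 0.24, interaction −0.68) and for p65 at Fpr2 (LPS 1.19, 24 hr IL-4 0.14, pretreatment under LPS 0.35, LPS after pretreatment 1.40). With the highest peak score they turned at Ccr1 (RNAPII-pS2, LPS, 0.068), Cxcr4 (RNAPII-pS2, LPS after pretreatment, 0.45), and Cx3cr1 (p65, 24 hr IL-4, 0.0017). A higher floor turned Cx3cr1 18.7 kb (0.26) and −0.5 kb (−0.17) and Ccr1 27.1 kb (−0.13) in the interaction and Ccr1 8.0 kb (−0.076) in LPS after pretreatment, the upper 50% of peaks turned Cx3cr1 18.7 kb (0.37), and quantile normalization turned Fpr2 13.1 kb for p65 (LPS 0.24, LPS after pretreatment 0.58). The causes were not tested. Alternatives added after seeing the data, elements in at least 8 lists and counting features absent from both groups, were run too. Read depth is unknown, so a missing peak shows only that none was listed.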

Other observations

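Cxcr2, a neutrophil chemokine receptor gene outside the 6, gained peak scores after IL-4. p300 at Cxcr2 was 36.8 and 102 in untreated cells and 381 and 405 after 1 hr of IL-4, without overlap (1.82, limma adjusted p = 0.000174), and H3K27Ac was 19.6 and 17.2 against 26.5 and 43.7 (0.90, adjusted p = 0.0506). Ccr7, a receptor that guides cells to lymph nodes, had RNAPII-pS2 scores of 17.9 and 33.6 in ctrl/ctrl, no peak in IL-4 PT/ctrl, 36.4 and 50.4 in ctrl/LPS, and 56.7 and 57.1 in IL-4 PT/LPS. Ccl8, a chemokine gene of the ligand list, had RNAPII-pS2 scores of 15.5 and 7.75 in ctrl/LPS and 45.4 and 53.5 in IL-4 PT/LPS (2.12, limma adjusted p = 0.027).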
